A study of Mus musculus with 8 samples.

Results

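The 33 genes described here encode scaffolds, adhesion proteins, receptors and signalling enzymes of the postsynaptic density, the protein meshwork beneath excitatory synapses. They were taken from a fixed list of symbols. All 33 were found among the 22869 genes of the count table, and all 33 were among the 16069 that passed the low-count filter. Each gene is represented by its transcript row with the highest mean count over the 8 libraries. The libraries came from the cortex of C57BL/6 mice of the APP/PS1 genotype, which carries transgenes that drive amyloid plaque formation. In 4 libraries the label names bexarotene, a drug that activates retinoid X receptors, as the agent, and in the other 4 the animals had received glycerol at 0.2 mg/kg, called vehicle here. Every animal in both groups thus carried APP/PS1, and no library came from mice without the transgenes. The sources used here do not give the animals' age or sex, the bexarotene dose, the duration of treatment or any pooling of animals. Nothing states that each library is a separate animal, so the p-values reflect only the scatter among these libraries, which may in part be technical.

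At an excitatory synapse, membrane-associated guanylate kinases of the Dlg family hold glutamate receptors and adhesion molecules in place through PDZ domains. Dlgap proteins join the Dlg layer to Shank proteins, and Homer proteins join Shank to metabotropic glutamate receptors and to calcium stores. The kinase made of Camk2a and Camk2b subunits responds to calcium entering through NMDA receptors, and exchange factors such as Kalrn and the Iqsec proteins pass signals on to small GTPases that shape spines and move AMPA receptors. In the cortex these genes are expressed mostly by neurons, although Grm3 is also an astrocyte gene. Loss of plaque-adjacent spines is a known feature of amyloid models.

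Total counts over all table rows ranged from 42413825 to 76542067 per library. On the first principal component (36.5% of the variance) replicates 1 and 3 of both groups lay apart from replicates 2 and 4 of both groups, and this split was not the treatment. All 4 bexarotene libraries held both Xist (84.7 to 218.0 CPM, read counts scaled to library size) and Y-linked transcripts (9.81 to 88.5 CPM summed over 4 genes). Vehicle replicates 1 and 3 held almost no Y-linked counts (at most 0.282 CPM), and vehicle replicates 2 and 4 almost no Xist (at most 0.861 CPM). A difference between groups within replicates 1 and 3, or within 2 and 4, thus cannot be told apart from this difference in sex-linked transcripts. Markers of excitatory cortical neurons were present in every library, summing to 1211.3 to 1999.5 CPM over 7 genes. Markers of the striatum, a region beneath the cortex, summed to 1261.5, 922.8 and 660.8 CPM in bexarotene replicates 1 and 3 and vehicle replicate 1, and to 219.4 to 326.6 CPM in the other 5. Marker levels thus differed between libraries of 1 group, and in bulk tissue fewer cells of a type and less RNA per cell cannot be told apart.

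Most postsynaptic density genes were at slightly lower levels under bexarotene, and none passed the test. The log2 fold change was negative in 28 of the 33 genes (84.8%), against 49.8% of all genes tested. The median was -0.13 for the 33 genes and 0.0009 for all genes. By edgeR's quasi-likelihood F test, 0 of the 33 members had an adjusted p below 0.05, the level used for a call throughout. Over all genes 1 of 16069 passed, or 0.00622%, and it was not a member. The smallest adjusted p among the 33 was 0.483, and DESeq2 also called 0 of them, with a smallest adjusted p of 0.251.

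At an unadjusted p below 0.05, 3 members were lower (Lrrtm2, Grm5 and Homer2) and 1 was higher (Homer3). The background at the same level was 3.89% lower and 4.88% higher over all genes, or 8.77% in both directions together. DESeq2 had 5 members lower and 1 higher at that level, against 4.47% and 5.04% of all genes in its own fit. The count of 3 rested on single libraries: it was 0 without bexarotene replicate 1, 1 when any of bexarotene replicate 3, vehicle replicate 3 and vehicle replicate 4 was left out, and 6 without bexarotene replicate 2. The share of all genes that were lower at this level moved as well, from 3.89% to 1.88%, 4.78% and 2.22% when bexarotene replicates 1, 2 and 3 were left out in turn, and to 3.25% and 3.38% when vehicle replicates 3 and 4 were. The members' median likewise was -0.07 without bexarotene replicate 1, -0.07 without bexarotene replicate 3 and -0.21 without bexarotene replicate 4. Same-numbered libraries deviated together across genes. However, bexarotene replicates 3 and 4 correlated more with vehicle replicates 1 and 2 (0.559 and 0.381) than with vehicle replicates 3 and 4 (0.245 and 0.323). Pairing by number therefore cannot be told apart from the split into replicates 1 and 3 and replicates 2 and 4. With the replicate number as a block, 10 members were lower and 1 higher at an unadjusted p below 0.05, against 4.82% and 5.53% of all genes in that fit. None of the 33 passed the adjusted level with the block (smallest adjusted p 0.317, for Lrrtm2). The 7 members added under the block were Cnksr2, Homer1, Iqsec2, Dlgap1, Kalrn, Shank1 and Cacng2. The groups did not overlap in 1 member, Homer3, where every bexarotene library was higher. Such separation was seen in 3.61% of all genes in the higher direction and in 2.16% in the lower direction.

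**Figure D1:**
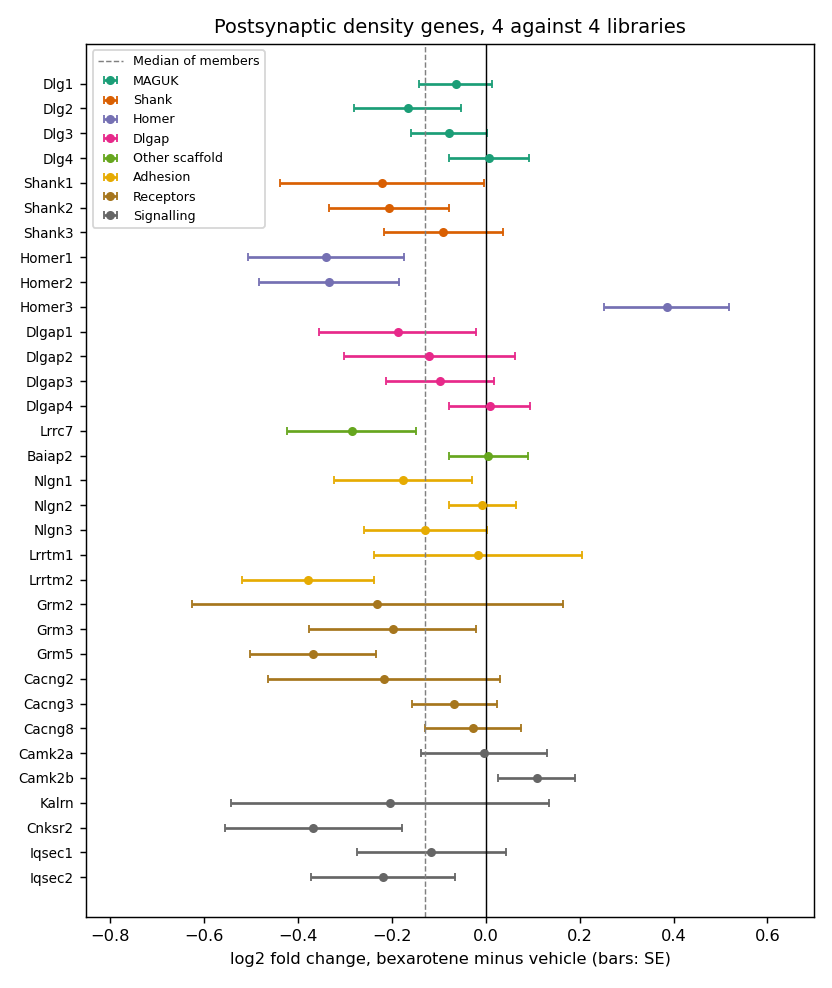
Log2 fold change (bexarotene minus vehicle, horizontal axis) of each of the 33 genes, coloured by role, with bars of 1 standard error and a dashed line at the members' median of -0.13. Homer3 (0.39) and Camk2b (0.11) lie furthest right of 0, Camk2b by little more than its standard error of 0.08. The number of genes left of 0 is 28.

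Dlg1, Dlg3 and Dlg4 were among the steadiest genes of the set, with the highest library 1.19 to 1.24 times the lowest, while Dlg2 (1.5 times) was near the members' median. Dlg4, which encodes PSD-95, the most abundant scaffold of the density, was at 711.4, 696.3, 716.6 and 803.5 CPM in bexarotene replicates 1 to 4 and at 649.1, 759.0, 721.2 and 785.4 CPM in vehicle replicates 1 to 4. The groups overlapped throughout, with means of 732.0 ± 48.5 and 728.7 ± 59.3 CPM (SD, n = 4). It differed by a log2 fold change of 0.01 ± 0.09 (SE), and edgeR's adjusted p was 0.995. Dlg1 (SAP97) had -0.06 ± 0.08, Dlg3 (SAP102) -0.08 ± 0.08 and Dlg2 (PSD-93) -0.17 ± 0.11. Dlg2 differed most between the replicate clusters: bexarotene replicates 1 and 3 had 246.3 and 259.7 CPM, and replicates 2 and 4 had 311.7 and 320.6 CPM. Vehicle libraries had 291.2 to 369.5 CPM of Dlg2, so bexarotene replicates 2 and 4 lay within the vehicle range.

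The Shank scaffolds, which tie the upper layer of the density to actin, all had negative log2 fold changes. Shank1 was at 317.7, 417.6, 326.3 and 569.6 CPM in bexarotene replicates 1 to 4 and at 357.1, 592.5, 417.9 and 533.5 CPM in vehicle replicates 1 to 4. Replicates 1 and 3 were the lower pair in both groups, and the difference between groups (-0.22 ± 0.22) was about the size of its standard error. Shank2 had -0.21 ± 0.13. The vehicle libraries of Shank2 were close together, at 128.2 to 139.2 CPM, whereas bexarotene replicates 1 and 3 were at 98.4 and 93.4 CPM and replicates 2 and 4 at 123.2 and 142.4 CPM. Shank3, whose loss causes a neurodevelopmental syndrome and which is also strongly expressed in striatum, had -0.09 ± 0.13 and lay between 231.0 and 331.2 CPM in all 8 libraries.

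Within the Homer family the 3 genes did not share a sign. Homer proteins bind proline-rich motifs in Shank and in group I metabotropic receptors and, except for a short activity-induced form of Homer1, assemble into tetramers. Homer1 was at 49.5, 79.9, 55.3 and 85.9 CPM in bexarotene replicates 1 to 4 and at 83.1, 88.6, 81.5 and 89.2 CPM in vehicle replicates 1 to 4. The vehicle libraries were tight (85.6 ± 3.87 CPM, SD, n = 4). The low values came from bexarotene replicates 1 and 3, while bexarotene replicate 4 lay inside the vehicle range. For Homer1 the fitted difference was -0.34 ± 0.17 (log2), and it ranged from -0.47 to -0.22 when single libraries were left out. edgeR's adjusted p was 0.615. The two-sided exact permutation p was 0.114, where the smallest p that 4 against 4 allows is 0.0286.

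Homer2 was at 51.8, 64.1, 51.1 and 62.4 CPM under bexarotene and at 62.5, 60.0, 71.9 and 94.6 CPM under vehicle, in replicate order. Vehicle replicate 4 stood highest, and the log2 fold change was -0.33 ± 0.15, or -0.17 without that library. Homer3, a low-expressed member of the cortex better known from cerebellar Purkinje cells, was at 20.7, 17.5, 18.2 and 17.6 CPM under bexarotene and at 11.9, 17.4, 12.5 and 14.9 CPM under vehicle. Every bexarotene library lay above every vehicle library, although the 2 closest, bexarotene replicate 2 and vehicle replicate 2, were almost equal. The fitted difference was 0.39 ± 0.13 on the log2 scale (a ratio of 1.31). The exact permutation test gave p = 0.0286, the smallest it can give, and edgeR's adjusted p was 0.483. Replicates 1 and 3 alone gave 0.67, and replicates 2 and 4 alone 0.12. Homer3 was positive under all 20 alternatives tried (0.31 to 0.50 when single libraries were left out), and it was the 1 member higher at an unadjusted p below 0.05. Without bexarotene replicates 1 and 3 and vehicle replicate 1 it was 0.23, and edgeR's unadjusted p was 0.197.

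Because bexarotene acts through nuclear receptors, the 250 bases before the annotated starts were searched for the core motif of such receptors, AGGTCA, on both strands. Sequences are from RefSeq on GRCm38.p6, a later build than the mm9 named for the counts, and entries were found for 26 of the 33 genes. The Homer windows are shown as the family whose members differ in sign, 5′ to 3′ on the gene's strand, with the motif (or its reverse complement TGACCT) in capitals.
Homer1, chr13:93303507-93303756 (+ strand): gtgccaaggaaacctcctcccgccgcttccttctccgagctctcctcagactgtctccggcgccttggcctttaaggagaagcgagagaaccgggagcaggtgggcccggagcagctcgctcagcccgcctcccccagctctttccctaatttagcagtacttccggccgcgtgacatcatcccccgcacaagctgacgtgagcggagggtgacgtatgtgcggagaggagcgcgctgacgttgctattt
Homer1, chr13:93307784-93308033 (+ strand): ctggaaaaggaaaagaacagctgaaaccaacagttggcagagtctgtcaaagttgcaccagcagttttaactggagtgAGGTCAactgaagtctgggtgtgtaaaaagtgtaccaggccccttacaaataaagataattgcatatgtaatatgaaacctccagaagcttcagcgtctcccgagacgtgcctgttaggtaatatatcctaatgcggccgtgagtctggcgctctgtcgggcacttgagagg
Homer2, chr7:81706926-81707175 (- strand): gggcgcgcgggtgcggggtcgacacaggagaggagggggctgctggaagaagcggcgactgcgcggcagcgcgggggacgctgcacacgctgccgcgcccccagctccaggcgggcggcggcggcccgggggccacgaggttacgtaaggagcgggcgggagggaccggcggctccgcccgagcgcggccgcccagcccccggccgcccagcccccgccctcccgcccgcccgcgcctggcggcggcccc
Homer2, chr7:81692966-81693215 (- strand): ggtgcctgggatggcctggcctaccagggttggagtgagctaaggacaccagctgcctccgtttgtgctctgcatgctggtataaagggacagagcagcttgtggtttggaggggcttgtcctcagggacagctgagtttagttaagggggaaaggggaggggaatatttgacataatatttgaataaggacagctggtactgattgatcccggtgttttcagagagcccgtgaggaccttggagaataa
Homer3, chr8:70282749-70282998 (+ strand): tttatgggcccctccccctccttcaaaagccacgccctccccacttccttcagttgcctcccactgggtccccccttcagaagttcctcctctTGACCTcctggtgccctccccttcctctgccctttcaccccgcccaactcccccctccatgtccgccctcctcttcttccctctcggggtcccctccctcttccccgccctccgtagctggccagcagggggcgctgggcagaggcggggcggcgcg
The motif occurred in the Homer3 window and in the downstream start of Homer1, and in neither Homer2 window. Among members it occurred in 6 of 26 genes, or 23.1% (Dlg4, Homer1, Homer3, Dlgap1, Lrrc7 and Cacng8), against 13.4% of 11241 tested genes with an entry. A gene counted if any of its windows held the motif, and the shares were not matched for the number of windows per gene. These 6 hold genes with negative, near-zero and positive log2 fold changes. Direct repeats of it spaced by 1 and by 4 bases, which overlap the core motif by construction, were in 0 of the 26. Over all entries the shares were 0.0445% and 0.0%, and the cyclic AMP response element TGACGTCA was in 0 of the 26, against 2.86% of all. A match is a run of letters and not a measured site.

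Of the Dlgap scaffolds, which bridge Dlg and Shank, 3 of 4 had negative values, between -0.19 and -0.10. Dlgap1 was at 324.3, 528.2, 383.0 and 502.4 CPM under bexarotene and at 403.8, 547.5, 464.6 and 562.7 CPM under vehicle, in replicate order. In both groups replicates 1 and 3 were below replicates 2 and 4, and the group difference was -0.19 ± 0.17. Dlgap2 had -0.12 ± 0.18 and Dlgap3, like Shank3 a gene with high striatal expression, had -0.10 ± 0.12. Dlgap4 was even between groups, with means of 255.8 ± 21.9 and 254.3 ± 16.6 CPM (SD, n = 4). The fitted difference was 0.01 ± 0.09. Lrrc7 (densin-180), a scaffold that binds the alpha subunit of the calcium-dependent kinase, was at 27.1 to 32.4 CPM under bexarotene and at 45.4, 27.7, 37.8 and 37.0 CPM in vehicle replicates 1 to 4. Vehicle replicate 2 lay within the bexarotene range while the other 3 lay above it, and the log2 fold change was -0.29 ± 0.14. Baiap2 (IRSp53), which links the density to actin, differed by 0.01 ± 0.08.

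The adhesion members reach across the cleft to presynaptic neurexins. Lrrtm2, a leucine-rich repeat ligand of neurexins that helps hold AMPA receptors at synapses, had the most negative log2 fold change of the 33 genes. Its levels were 30.5, 46.8, 35.0 and 46.3 CPM in bexarotene replicates 1 to 4 and at 49.4, 53.5, 46.8 and 56.6 CPM in vehicle replicates 1 to 4. The highest bexarotene library equalled the lowest vehicle library at this precision, and the remaining values did not cross. The means were 39.7 ± 8.16 and 51.6 ± 4.35 CPM (SD, n = 4) and the fitted log2 difference was -0.38 ± 0.14 (ratio 0.769). edgeR's adjusted p was 0.516. Replicates 1 and 3 alone gave -0.56, and replicates 2 and 4 alone -0.24. The value was -0.16 with an offset for transcript length and GC content.

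Its relative Lrrtm1 had another pattern over the libraries. Lrrtm1 was at 59.2, 68.8, 65.9 and 51.0 CPM under bexarotene and at 80.6, 47.9, 78.4 and 41.0 CPM under vehicle, so vehicle replicates 1 and 3 were the highest and vehicle replicates 2 and 4 the lowest of all 8. The clusters had opposite signs, with -0.35 in replicates 1 and 3 and 0.42 in replicates 2 and 4, and the pooled value was -0.02 ± 0.22. The neuroligins, the classical neurexin partners, had small values. Nlgn1, of excitatory synapses, had -0.18 ± 0.15, and Nlgn3, found at both kinds of synapse, -0.13 ± 0.13. Nlgn2, the neuroligin of inhibitory synapses, had -0.01 ± 0.07 and the narrowest range of the 33 genes, with 243.4 to 278.1 CPM over the 8 libraries. Nlgn3 reached 95.5 CPM in vehicle replicate 1, against 61.3 to 72.1 CPM in the other vehicle libraries, and its log2 fold change without that library was 0.02.

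All 6 receptors and auxiliary subunits had negative values. Grm5 encodes the group I metabotropic receptor mGluR5, which is tied to Shank by Homer and has been described as a co-receptor for amyloid-beta oligomers. Grm5 was at 125.2, 153.2, 142.2 and 117.7 CPM in bexarotene replicates 1 to 4 and at 194.2, 133.9, 197.2 and 169.4 CPM in vehicle replicates 1 to 4. Vehicle replicate 2 fell within the bexarotene range, and the other 3 vehicle libraries lay above all 4 bexarotene libraries. The fitted log2 difference was -0.37 ± 0.13 (ratio 0.775). The exact permutation test gave p = 0.0857, and edgeR's adjusted p was 0.512. Grm5 was lower within both clusters, by -0.55 in replicates 1 and 3 and by -0.17 in replicates 2 and 4. It was at -0.41 ± 0.13 with the striatum markers as a covariate and at -0.32 with the length and GC offset.

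Grm2, a group II receptor that acts on release and is enriched in parts of cortex, was the most variable member. Levels were 21.6, 60.3, 24 and 55.3 CPM in bexarotene replicates 1 to 4 and at 27.4, 58.0, 54.5 and 49.1 CPM in vehicle replicates 1 to 4. The same 3 libraries that held most striatal transcripts had 21.6 to 27.4 CPM of Grm2, and the other 5 had 49.1 to 60.3 CPM. Its highest library was 2.79-fold above its lowest, whereas the difference between groups was -0.23 ± 0.39. The fold change became 0.10 without those 3 libraries. Grm3, the related group II receptor of neurons and astrocytes, had -0.20 ± 0.18, and 0.0076 without vehicle replicate 4, its highest library at 69.1 CPM.

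The 3 members of the Cacng family encode auxiliary subunits that carry AMPA receptors to Dlg4. Cacng2 (stargazin) was at 41.5, 66.0, 43.6 and 65.8 CPM under bexarotene and at 41.8, 82.8, 51.9 and 75.5 CPM under vehicle, with replicates 1 and 3 below replicates 2 and 4 in both groups. Its log2 fold change was -0.22 ± 0.25. Cacng3 had -0.07 ± 0.09 and Cacng8, the main form in hippocampus, -0.03 ± 0.10, with overlapping groups for both.

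**Figure D2:**
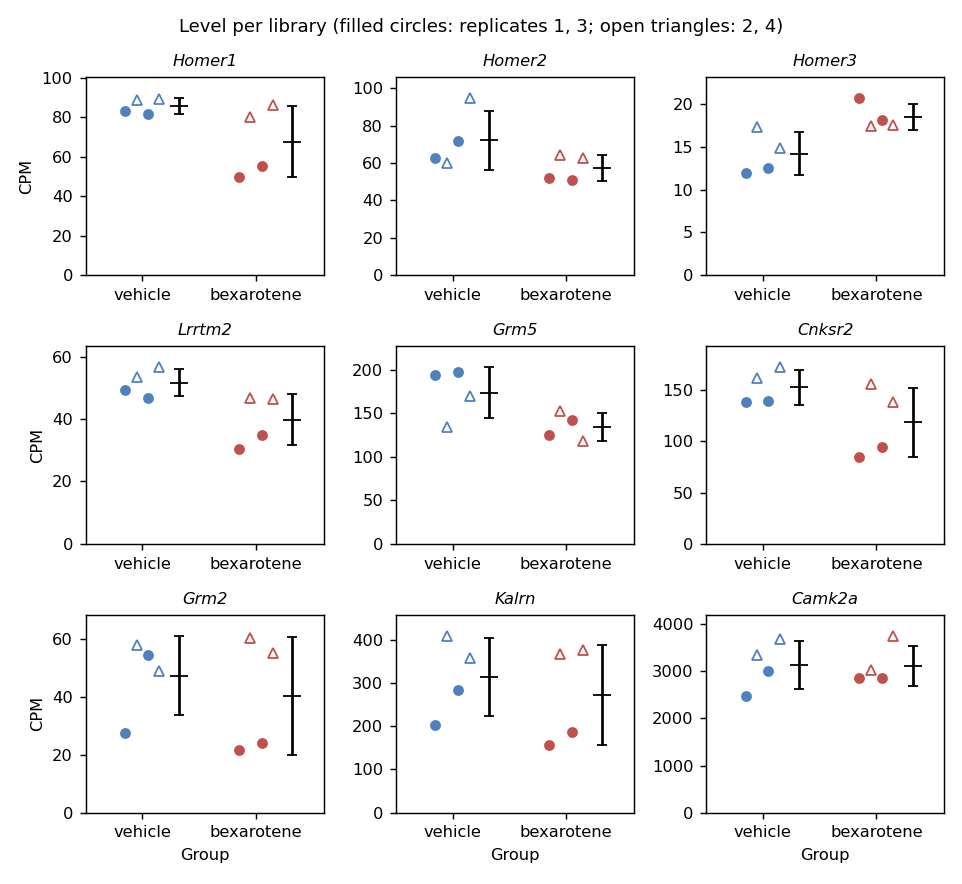
CPM in each library for 9 of the genes, vehicle in blue and bexarotene in red, with filled circles for replicates 1 and 3, open triangles for replicates 2 and 4, and black bars for the mean ± SD (n = 4). In Homer1, Cnksr2, Grm2 and Kalrn the low bexarotene values are those of replicates 1 and 3, and in Homer3 all bexarotene libraries lie above all vehicle libraries.

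Camk2a, the alpha subunit of the calcium-dependent kinase, was by far the most abundant member. Levels were 2844.0, 3022.9, 2854.8 and 3742.5 CPM under bexarotene and at 2469.4, 3340.3, 3012.0 and 3669.9 CPM under vehicle, in replicate order. The means of 3116.0 ± 425.6 and 3122.9 ± 511.8 CPM (SD, n = 4) differed by less than the spread within either group (log2 fold change -0.0032 ± 0.13). Camk2b, the beta subunit that binds actin, was at 624.6 ± 51.2 and 579.2 ± 28.4 CPM (SD, n = 4). At 0.11 ± 0.08 it had the second most positive value of the set, and its highest libraries were bexarotene replicates 1 (674.7 CPM) and 3 (655.6 CPM). Levels per kilobase depend on the transcript model used, so only some orders hold. For the rows used here, averaged over the 8 libraries, Camk2a was at 627.7 CPM per kilobase and Camk2b at 321.0. The other Camk2a row, with a shorter model, gave 2578.4, and the other Camk2b rows, with longer models, gave 149.6 and 150.2. Dlg4 was at 133.5 or 209.4 by row and Dlgap3 at 109.8. Lrrc7 (5.69) and Homer3 (6.27 and 6.68) were at the low end, whereas Nlgn1 was at 4.98 or 18.4 by row. Homer1 ranged from 5.44 to 25.1 by row and Homer2 from 5.83 to 39.6.

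Kalrn encodes kalirin, an exchange factor for Rac that enlarges spines. Its levels were 157.6, 366.5, 185.9 and 376.2 CPM in bexarotene replicates 1 to 4 and at 201.9, 408.1, 283.5 and 357.5 CPM in vehicle replicates 1 to 4. In each group replicates 1 and 3 were below replicates 2 and 4, and averaged over groups the clusters differed by 0.90 on the log2 scale. The group difference was -0.20 ± 0.34. Cnksr2, a scaffold that joins Ras signalling to the density, was at 84.5, 155.3, 94.7 and 138.3 CPM under bexarotene and at 137.9, 161.3, 138.7 and 172.0 CPM under vehicle. Bexarotene replicates 1 and 3 were far below the rest, bexarotene replicates 2 and 4 lay within the vehicle range, and the log2 fold change was -0.37 ± 0.19. With the replicate block it was -0.41 ± 0.11, and edgeR's adjusted p was 0.342. It was -0.20 ± 0.10 with the striatum markers as a covariate and -0.26 ± 0.17 with the length and GC offset. The Arf exchange factors Iqsec2 (-0.22 ± 0.15) and Iqsec1 (-0.12 ± 0.16), which regulate AMPA receptor trafficking, showed the same ordering of replicates.

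Cnksr2, Iqsec2, Dlg3 and Nlgn3 lie on the X chromosome, and the libraries differed in their content of Xist and Y-linked transcripts. With the Y-linked level as a covariate, 27 of the 33 members were lower and the members' median was -0.15. No member passed in that fit either, with a smallest adjusted p of 0.435.

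The counts are given per transcript, and 18 of the 33 genes had several rows, 61 rows in all. Rows of a gene gave nearly the same answer: the largest spread of log2 fold change among the rows of 1 gene was 0.10, for Dlgap1 (-0.20 to -0.10), followed by 0.08 for Homer1. In 2 genes, Dlg4 and Homer3, all rows held identical counts, so these rows carry no information on isoforms. Rows of several other genes held nearly the same counts. In bexarotene replicate 1 the Camk2b rows were at 674.3, 674.7 and 674.6 CPM, and both Grm5 rows at 125.2 CPM. Similar fold changes of such rows are therefore not separate support. For Homer1 the row NM_147176, used above, had -0.34 ± 0.17, NM_152134 had -0.36 ± 0.16 and NM_011982 had -0.28 ± 0.21. The last of these was at 19.9, 29.8, 22.3 and 40.3 CPM under bexarotene and at 41.7, 32.2, 30.1 and 32.4 CPM under vehicle, so the groups overlapped in each row. The sources used here do not say how reads shared by isoforms were assigned.

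Differences between the replicate clusters exceeded those between treatments for most of the set. In 24 of the 33 genes the difference between replicates 2 and 4 and replicates 1 and 3, averaged over groups, was larger in size than the mean treatment difference. In 23 genes it was in the direction of lower levels in replicates 1 and 3. Bexarotene replicate 1 was the lowest of the 8 libraries for 14 genes. These counts were not made over all genes, and the clusters were read from these same data. The counts therefore do not set the members apart from other genes. The median level of the set, on a log2 scale relative to each gene's own mean, stood at -0.27 and -0.16 for bexarotene replicates 1 and 3 and 0.04 and 0.10 in bexarotene replicates 2 and 4. In vehicle replicates 1 to 4 it was -0.04, 0.11, 0.04 and 0.17. In the 33 genes the highest library was a median of 1.57-fold above the lowest, the same as over all genes tested. All genes tested include many with lower counts, so this comparison is not matched for level.

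**Figure D3:**
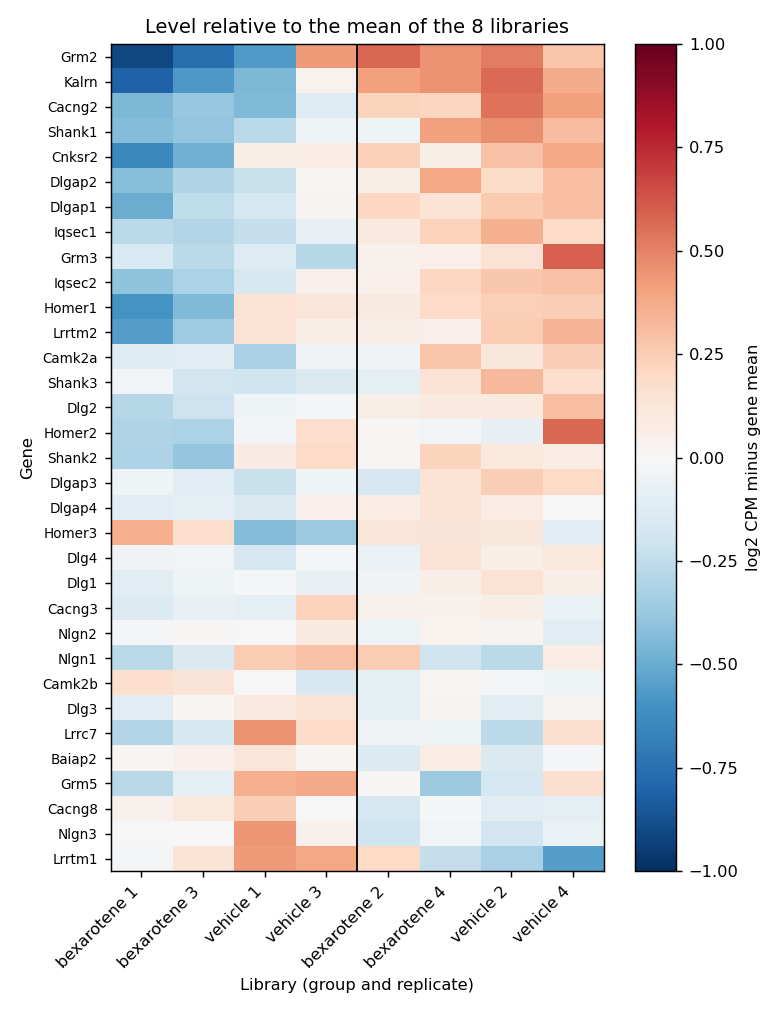
Log2 CPM of each gene relative to its mean over the 8 libraries (colour, rows are genes ordered by the difference between replicate clusters), with replicates 1 and 3 of both groups left of the black line and replicates 2 and 4 right of it. Blue fills much of the left block in the upper rows, deepest in bexarotene replicates 1 and 3. In rows such as Lrrtm1 and Nlgn3 the right block is the lower one on average.

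Within replicates 1 and 3, 27 of the 33 genes were lower under bexarotene, with a median log2 difference of -0.22. Within replicates 2 and 4, 20 of 33 were lower and the median was -0.05. In 15 genes the difference was negative in both, a count that was not made over all genes. Homer3 was the 1 gene positive in both. Over all genes tested the medians were 0.03 and 0.01. Each cluster holds 2 libraries per group, and the difference between clusters was not tested. In replicates 1 and 3 the vehicle libraries held almost no Y-linked counts, and in replicates 2 and 4 almost no Xist. Every bexarotene library held both. Treatment within a cluster therefore cannot be told apart from this difference in sex-linked transcripts.

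Markers of tissue content moved with these levels. The median relative level of 7 excitatory cortical neuron markers was -0.67, -0.33 and -0.37 in bexarotene replicates 1 and 3 and vehicle replicate 1, and between 0.16 and 0.58 in the other 5 libraries. The median of 12 striatum markers was 1.72, 1.25 and 0.70 in the same 3 libraries and between -1.31 and -0.39 in the others. The median of 7 general neuron markers stayed within -0.02 and 0.20 by the same measure, but their sum was lowest in the same 3 libraries (3804.3, 4100.7 and 4300.7 CPM, against 4761.6 to 5109.8 CPM in the others). The low sums came mainly from Snap25 and Syt1, genes of synaptic vesicle release. Both were lowest in bexarotene replicates 1 and 3, at 1394.6 and 1549.4 CPM for Snap25 and 753.5 and 863.6 CPM for Syt1. Rbfox3 was lowest in vehicle replicate 1 (232.8 CPM). Stmn2, Eno2, Nefl and Tubb3 were lowest outside these 3 libraries, in vehicle replicates 2, 4, 3 and 2 (217.6, 617.5, 226.4 and 208.9 CPM). With the mean level of the striatum markers as a covariate, 21 of the 33 members were lower and the median was -0.02. Leaving out those 3 libraries gave 22 lower and a median of -0.03, with 2 bexarotene against 3 vehicle libraries. In the covariate fit Grm5 (-0.41 ± 0.13), Lrrtm2 (-0.26 ± 0.10) and Homer3 (0.41 ± 0.15) were the 3 members with an unadjusted p below 0.05 (0.0116, 0.0212 and 0.0178), and none passed the adjusted level. Over all genes 4.74% were lower and 4.51% higher at that level in the covariate fit. Other cell type markers are given by their sums over each list. Microglia markers (8 of 8 positive) summed to 649.3 to 857.8 CPM under bexarotene and to 492.7 to 619.5 CPM under vehicle, without overlap. Choroid plexus markers (6 of 6 positive) summed to 79.5 to 1459.1 CPM and to 21.5 to 42.3 CPM. That separation rested on Ttr (58.7 to 1396.7 and 6.14 to 33 CPM), and the sums of the other 5 overlapped (14.7 to 62.4 and 8.27 to 15.3 CPM). The sums overlapped for interneuron (568.5 to 938.1 and 656.0 to 895.0 CPM), astrocyte (3911.1 to 4471.7 and 3827.3 to 5040.9 CPM) and oligodendrocyte markers (1513.2 to 2423.3 and 1176.8 to 2640.0 CPM). They also overlapped for endothelium (153.1 to 195.5 and 113.5 to 175.0 CPM) and hippocampus markers (157.1 to 283.3 and 123.8 to 287.0 CPM). By gene, 6 of 6 endothelium, 6 of 7 astrocyte and 6 of 7 oligodendrocyte markers had positive log2 fold changes. So did 4 of 7 interneuron and 2 of 8 hippocampus markers. Hypothalamus markers summed to 80.7, 60.1 and 106.5 CPM in bexarotene replicates 1 and 3 and vehicle replicate 1, the libraries with most striatum markers, and to 3.32 to 9.41 CPM in the other 5. The part of these other markers in the members' levels was not tested.

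**Figure D4:**
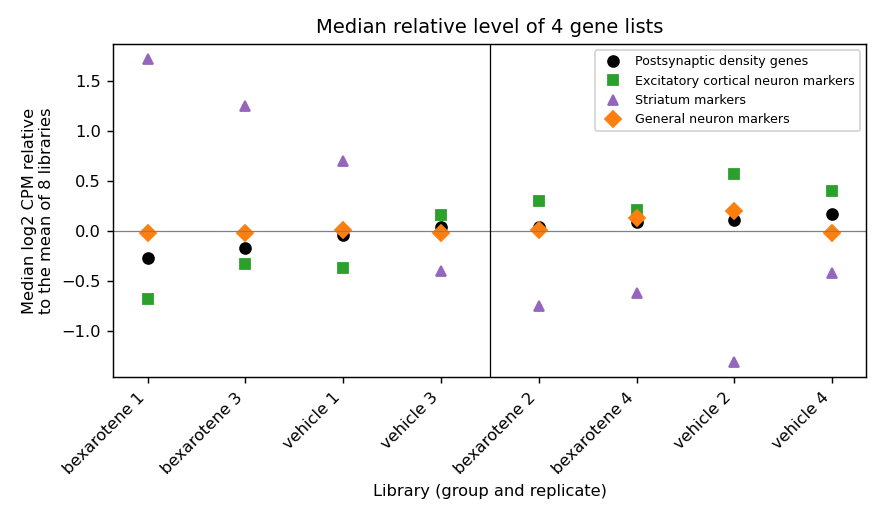
Median log2 CPM relative to the mean of the 8 libraries (vertical axis) for the 33 postsynaptic density genes, 7 excitatory cortical neuron markers, 12 striatum markers and 7 general neuron markers in each library. The striatum markers are above 0 in bexarotene replicates 1 and 3 and vehicle replicate 1, and in these 3 libraries the excitatory markers and the postsynaptic genes are below 0.

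Other genes of the synapse, taken from lists of neighbouring functions, also had mostly negative log2 fold changes. Over all genes tested 49.8% were lower. Among 3418 genes in the middle range of the members' transcript lengths 66.5% were lower, with a median of -0.06. Of 15 ionotropic glutamate receptor subunits 12 were lower (median -0.17). Of 12 further metabotropic receptors and auxiliary subunits 11 were lower (median -0.19). Of 23 further adhesion genes 19 were lower (median -0.10), of 39 further scaffolds and signalling genes 28 (median -0.07), and of 10 genes of the inhibitory postsynapse 9 (median -0.09). The inhibitory list holds the member Nlgn2 and, with the adhesion list, Slitrk3. Without both, 7 of 8 were lower and the median was -0.12. Of the further scaffolds and signalling genes 71.8% were lower, near the share for that length range. The medians of the adhesion and inhibitory lists were smaller in size with an offset for length and GC content, as given in the last section. In each of these lists 0 genes passed over all genes in either direction. Among the 89 genes of the 4 excitatory and adhesion lists, 6 were lower and 0 higher at an unadjusted p below 0.05, against 3.89% lower and 4.88% higher over all genes. In 6 of the 89 the groups did not overlap, all in the lower direction, against 2.16% of all genes.

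Gria2, the AMPA receptor subunit that limits calcium entry, was at 343.9, 425.5, 396.6 and 402.2 CPM under bexarotene and at 506.3, 465.1, 487.4 and 481.1 CPM under vehicle, without overlap. The fitted difference was -0.31 ± 0.08, and edgeR's adjusted p was 0.392. Slitrk4, an adhesion gene on the X chromosome, was at 12.2 to 16.7 CPM against 19.4 to 25 CPM (-0.50 ± 0.13). Neto2, an auxiliary subunit of kainate receptors, was at 28.6 to 36.4 against 40.0 to 53.4 CPM (-0.44 ± 0.11). Lin7c and Lin7a, small PDZ scaffolds that bind Cask, had -0.34 ± 0.09 and -0.30 ± 0.08, also without overlap. These genes were lower within both replicate clusters, by -0.34 and -0.34 for Lin7c, by -0.53 and -0.48 for Slitrk4 and by -0.43 and -0.19 for Gria2. Gria4 (-0.20 ± 0.11), Neto1 (-0.21 ± 0.08) and Lrfn1 (-0.20 ± 0.09) followed. At the inhibitory postsynapse the GABA receptor subunit Gabrb2 had -0.21 ± 0.10.

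Long transcripts tended to be lower under bexarotene across the whole table, and the postsynaptic genes are long. Their median annotated length was 4956 nt (1380 to 11807 nt), against 2897 nt for all genes tested. Among 3418 genes with lengths between 3518 and 5993 nt, the middle range of the members, 66.5% were lower and the median log2 fold change was -0.06. The members' 84.8% and -0.13 are thus to be read against these values as well as against all genes. Across the 33 genes, which are not independent replicates, the log2 fold change correlated with length at a Spearman rho of -0.31. Over 11560 genes above a mean of 2 log2 CPM it was -0.47. With an offset for length and GC content in each library, 25 of 33 members were lower and the median was -0.10. In that fit Homer3 had 0.33 ± 0.11, Homer2 -0.44 ± 0.17 and Grm5 -0.32 ± 0.13, and Nlgn1, at 11807 nt the longest member, had 0.09.

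**Figure D5:**
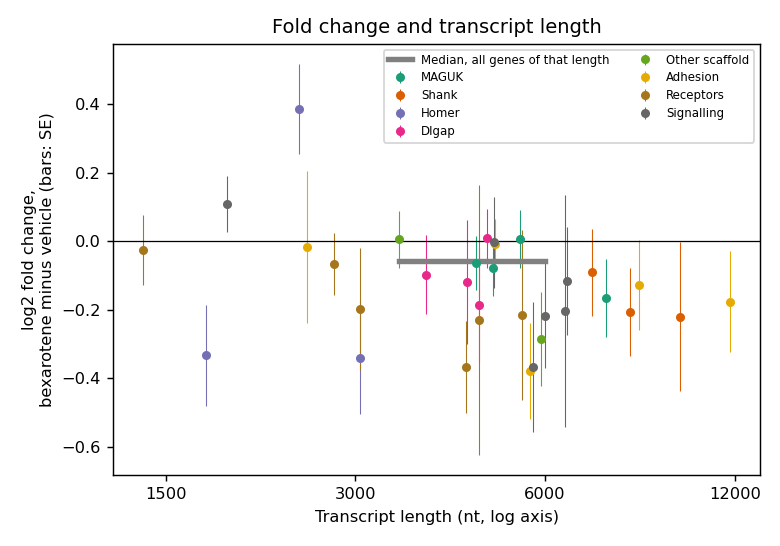
Log2 fold change (bexarotene minus vehicle, bars of 1 standard error) of the 33 genes against annotated transcript length on a log axis, coloured by role, with a grey line at -0.06, the median of all 3418 genes between 3518 and 5993 nt. Most genes of that length range lie below the grey line, and the shorter Homer1 (-0.34) and Homer2 (-0.33) also lie well below it.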

How the data were processed

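Cortical RNA of 8 libraries was sequenced. The labels' protocols name an RNeasy kit for extraction and a stranded TruSeq kit for mRNA libraries. The authors deposited raw read counts per RefSeq transcript (28644 rows, 22869 genes). The submitters' processing notes name mm9 and edgeR. Which aligner and counter were used, and with which strand setting, is not given in the sources used here, so reads of overlapping antisense genes cannot be told apart. No column of values was left out (0 columns).

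Counts were tested with edgeR 4.0.16 (R 4.3.3): default low-count filter, TMM factors, robust quasi-likelihood F test, treatment alone in the model, Benjamini-Hochberg adjusted over 21285 rows, called below 0.05. Standard errors were derived from the F statistic. CPM uses TMM-scaled library sizes. Log2 CPM (prior count 2) served permutation tests and differences within replicate clusters. Transcript length and GC content came from GENCODE M21, matched by accession for 97% of rows. Alternatives used DESeq2 1.42.0, limma 3.58.1, other scalings and filters, covariates and left-out libraries.

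The titles number replicates 1 to 4 in both groups. After group means were removed, same-numbered libraries correlated at 0.496, 0.299, 0.245 and 0.323, all above 0.1, the level for treating numbers as pairs. Bexarotene replicate 3 correlated more with vehicle replicate 1 (0.559), and bexarotene replicate 4 with vehicle replicate 2 (0.381). Pairs therefore cannot be told apart from the clusters of replicates 1 and 3 and 2 and 4.

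The members and lists were chosen with earlier results of these data known. All 33 members are named, and of each other synaptic list the 2 genes with the smallest p, except 1 result that is not reported here. Of 92 entries of the 4 excitatory and adhesion lists, 89 were tested. Other marker lists (interneuron, astrocyte, oligodendrocyte, endothelium, hippocampus, choroid plexus, hypothalamus) were used as a description of the libraries only.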

Additional observations from a re-analysis of the deposited data

Results flagged for a closer look

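Among the 66 sets of 4 libraries (33 genes in each group), 1 held a library far from the other 3. Nlgn3 was at 61.0 CPM in bexarotene replicate 2, against 68.9 to 70.4 CPM in the other 3 bexarotene libraries, a gap of 0.841 of the group's range, above Dixon's critical value. Chance marks about 1 in 20 such groups.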

How the results depend on the processing

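No member passed the adjusted level under any of the 20 alternatives, and 1 of these, leaving out the 3 libraries richest in striatal transcripts, was chosen after seeing the data. The count of members lower stayed between 21 and 30 of 33. The median stayed negative, from -0.214 to -0.0696 when single libraries were left out (25 to 30 lower). It was -0.09 with upper quartile scaling. With the replicate block it was -0.14 (26 lower), and the block changed no adjusted call. Over all genes 1 passed, but DESeq2 called 104, leaving out single libraries gave 1 to 2, and leaving out the 3 libraries gave 0 (459 genes at an unadjusted p below 0.05). With the length and GC offset the medians of further adhesion and inhibitory postsynapse genes were -0.0246 and -0.0118; with the block as well they were -0.0184 and -0.0071, and that of ionotropic receptors -0.0831.

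In 13 members the sign held throughout. In 20 it changed at least once, mostly near 0, and the cause was not tested. With RLE scaling Dlg4 was at -0.00068 and Baiap2 at -0.0016; with DESeq2 they were at -0.000704 and -0.0016. Upper quartile scaling gave Nlgn2 0.024, Lrrtm1 0.0176, Cacng8 0.0075 and Camk2a 0.0253. Without a filter Camk2a was at 0.00042. Voom gave Lrrtm1 0.041 and Camk2a 0.0020; the replicate block gave 0.035 and 0.0026. The length and GC offset gave Dlg1 0.0173, Baiap2 -0.0417, Nlgn1 0.0858, Nlgn2 0.0011 and Camk2a 0.0080; with the block these were 0.0211, -0.0366, 0.0921, 0.0043 and 0.0184. The striatum covariate gave Shank1 0.0083, Shank3 0.0082, Dlgap2 0.0559, Baiap2 -0.0385, Grm2 0.118, Cacng2 0.0627, Camk2a 0.11, Kalrn 0.134 and Iqsec1 0.0625. The Y-linked covariate gave Dlg4 -0.0108, Dlgap4 -0.0022, Nlgn2 0.0101, Lrrtm1 0.175 and Cacng8 0.0199. Leaving out the 3 libraries gave Dlg4 -0.0081, Shank2 0.0015, Dlgap2 0.0607, Lrrtm1 0.108, Grm2 0.103, Camk2a 0.0199, Kalrn 0.0885 and Iqsec1 0.0011. When single libraries were left out, Dlg4 ranged from -0.0455 to 0.05, Shank3 from -0.166 to 0.016, Dlgap4 from -0.0353 to 0.0475, Baiap2 from -0.0351 to 0.0532, Nlgn2 from -0.036 to 0.0226, Nlgn3 from -0.203 to 0.019, Lrrtm1 from -0.164 to 0.137, Grm3 from -0.311 to 0.00763, Cacng3 from -0.106 to 0.00353, Cacng8 from -0.0653 to 0.059 and Camk2a from -0.101 to 0.089.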
